A study of Citrus sinensis with 10 samples.

Results

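Fruit RNA of the sweet orange (Citrus sinensis) bud mutant Hong Anliu and of its wild type Anliu was compared at 220 days after flowering, the last of 5 collections. The comparison rests on the 2 arrays whose labels give 220 days, out of 10 arrays in all. On array 1 the mutant was labelled with Cy5 and the wild type with Cy3, and on array 2 the dyes were exchanged. Each array carried 5856 cDNA clones with 3 spots each, and 5833 of these clones had a signal above the blank and solvent spots in at least 1 genotype on both arrays.

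Hong Anliu arose as a changed shoot on an Anliu tree and has been kept by grafting, so the genotypes differ by what changed in that shoot. Its flesh is red from lycopene, a carotenoid pigment that ordinary sweet oranges convert further into yellow and orange carotenoids. In ripening citrus fruit, carotenoid synthesis, loss of chlorophyll, sugar storage and loss of acid proceed together, and many transcripts change with the stage of ripening. A difference between genotypes at 1 collection day can therefore hold a difference in genotype and a difference in stage, which cannot be told apart in this design.

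The group of mutant fruit on day 220 is Hong Anliu, and the group of wild type fruit is Anliu, with no treatment. The other collections, at 120, 150, 170 and 190 days, had the same 2 genotypes and the same dye swap. The labels do not say which fruit tissue was used, or whether fruit of several trees was pooled. The series' design gives the arrays of a day as a dye-swapped duplicate of 1 hybridization, and no label names separate fruit or extracts for them. They were therefore taken as 1 replicate, and the ratios of 220 days have no test against biological spread. Differences in the makeup of the tissue and in the RNA per cell cannot be told apart either.

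The files do not pair the clones with genes, and 0 clone names matched the gene table at hand. Clones are therefore given by plate, row and column, no pathway or marker of a cell type could be read, and the fruit label could not be checked against marker genes. All ratios below are log2 ratios of mutant over wild type after a loess fit within each array, which sets the typical clone near 0. A ratio of 1 thus means a level 2-fold higher in the mutant relative to the typical clone.

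The ratios of the dye-swapped arrays correlated at r = 0.78 across 5833 clones, against 0.88 to 0.97 at the other days. The SD between the arrays was 0.33, against 0.18 to 0.27 at the other days. Of the clones, 82.5% had the same sign on both arrays, against 82.2% to 92.0% at the other days, and the SD of the mean ratio over clones was 0.66. On array 1 the limit for the wild type dye was 822, since the solvent spots there reached 1820 (95th percentile) while the blank spots reached 24.9. On array 2 that limit was 4.65. The wild type therefore exceeded the limit for 4891 clones on array 1 and for 5850 on array 2. The median intensity over clone spots was 3730 for the mutant and 2265 for the wild type on array 1, and 3959 and 2188 on array 2. Before the loess fit the median log2 ratio was 0.60 and 0.71, and these were the only arrays of the series on which the mutant was the brighter genotype.

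On day 220, 383 of the 5833 clones, 6.57%, were 2-fold or more apart between the genotypes, with both arrays pointing the same way. Of these, 255 clones (4.37%) were higher in Hong Anliu and 128 clones (2.19%) were lower. A further 2 clones were 2-fold in opposite directions on the arrays. Taken alone, array 1 gave 436 higher and 366 lower clones, and array 2 gave 370 and 217. The median clone lay at -0.06, a range of -0.44 to 0.43 held the middle 50% of clones, and the 1st and 99th percentiles were -1.38 and 1.71. The higher side held more clones up to 3-fold, and the lower side held more from 4-fold up. The median ratio was 1.397 among the higher clones and -1.273 among the lower clones. The 12 lowest clones all belong to 1 set of 17 clones with a like course, described below. On both arrays 62 clones were 3-fold higher and 31 were 3-fold lower, while 11 were 4-fold higher and 25 were 4-fold lower. No clone was 8-fold higher, and 13 were 8-fold lower. These counts depend on the centre of the arrays: with the controls Y1 to Y4 as the centre of each array, 2783 clones were higher and 21 lower, as described with the controls.

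**Figure D1:**
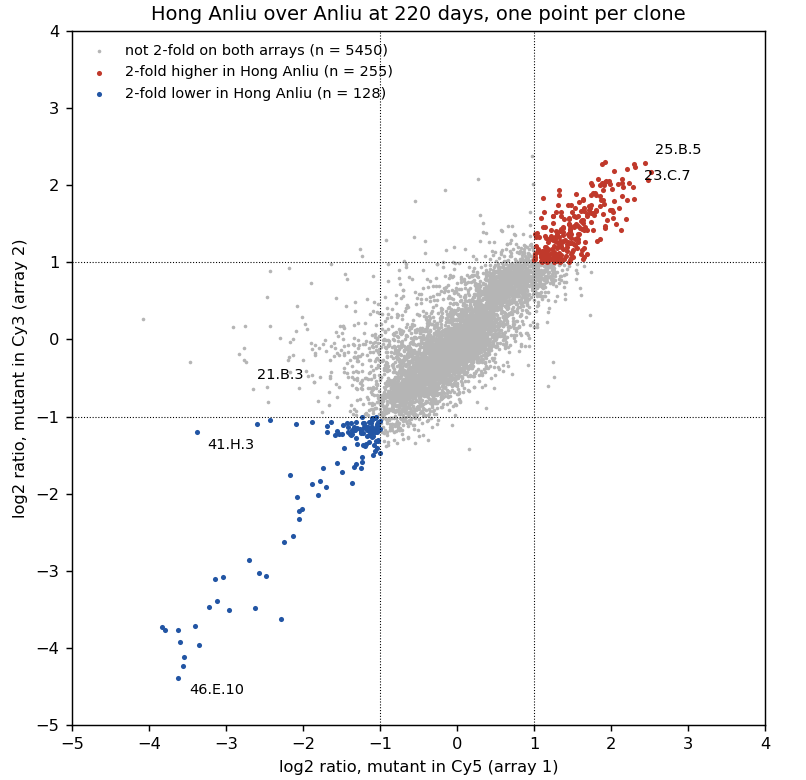
Each point is 1 of the 5833 clones, with its log2 ratio of Hong Anliu over Anliu on array 1 (mutant in Cy5) on the x axis and on array 2 (mutant in Cy3) on the y axis, and dotted lines at 2-fold. The 255 red clones lie beyond 1 and the 128 blue clones beyond -1 on both axes, and the lowest clones form a tail that ends at 46.E.10.

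The ratios of the 2 arrays agreed better for brighter clones. Split into 4 classes of equal size by mean intensity, the dimmest clones had an r of 0.60 between the arrays, and 3.63% of them were 2-fold different. In the other classes, from dim to bright, r was 0.81, 0.91 and 0.95, and 5.35%, 9.81% and 7.48% were 2-fold different. All 6 spots were 2-fold in 1 direction for 187 of the 255 higher clones and for 88 of the 128 lower clones. Among the higher clones 41 had a wild type signal not above the limit on array 1, and among the lower clones this held for 2 in the wild type and 1 in the mutant. Over all 5833 counted clones, 945 had a wild type signal not above that limit, a share close to that of the higher clones. When the limit was taken from the blank spots alone and both dyes had to exceed it, the counts were again 255 and 128.

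The higher clones reached a median ratio of 1.397, with a range of 1.02 to 2.36. Clone 25.B.5 had the highest mean ratio among clones with both genotypes above the limit on both arrays. Its mean intensity over 3 spots was 14141 in Hong Anliu and 1493 in Anliu on array 1, and 15705 and 1879 on array 2. The mutant was the brighter genotype in both dyes. After the loess fit its ratio was 2.43 ± 0.16 (SD over 3 spots) on array 1 and 2.28 ± 0.08 on array 2. The mean of 2.36 corresponds to a level 5.13-fold higher in Hong Anliu, relative to the typical clone.

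Clone 23.C.7 followed, with intensities of 19342 and 22272 in the mutant and 2157 and 2696 in the wild type, and ratios of 2.29 and 2.28. Clone 27.A.12 had intensities of 22053 and 23488 in the mutant and 2402 and 2969 in the wild type, and ratios of 2.31 and 2.24. For clone 24.F.10 the mutant read 19797 and 17682 and the wild type 2338 and 2219, with ratios of 2.20 and 2.21. In each of these clones the arrays differed by less than the distance between the genotypes. The remaining 8 of the 12 highest clones were 7.B.3, 27.B.3, 28.C.6, 20.F.4, 29.F.8, 27.D.10, 6.D.8 and 15.E.12, with mean ratios of 2.14 down to 2.05. Their intensities were 14449 to 30052 in the mutant and 2157 to 3712 in the wild type. The widest gap between arrays in these 12 was that of 6.D.8, with 2.29 on array 1 and 1.82 on array 2.

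The lower clones had a median ratio of -1.27 and reached down to -4.01. Clone 46.E.10 was lowest. Its intensity was 282 in Hong Anliu and 2714 in Anliu on array 1, and 239 and 3007 on array 2. Its ratios were -3.62 ± 0.24 (SD over 3 spots) and -4.40 ± 0.03, and the mean of -4.01 corresponds to a level 16.1-fold higher in Anliu. Clone 47.A.7 had intensities of 232 and 108 in the mutant and 2209 and 1285 in the wild type, and ratios of -3.56 and -4.23. For clone 46.G.10 the mutant read 325 and 277 and the wild type 2972 and 2865, with ratios of -3.54 and -4.12.

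The other 9 of the 12 lowest clones were 46.B.12, 30.H.12, 60.E.11, 40.E.1, 47.B.1, 35.C.1, 58.E.1, 36.E.3 and 47.D.3. Their mean ratios ran from -3.78 to -3.24, and their mutant intensities from 186 to 566 against 1495 to 4511 in the wild type. The mutant signal of all 12 exceeded its limit on both arrays, which was 95.4 on array 1 and 28 on array 2. For 10 of the 12, 46.B.12 and 30.H.12 being the exceptions, array 2 gave the lower ratio.

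**Figure D2:**
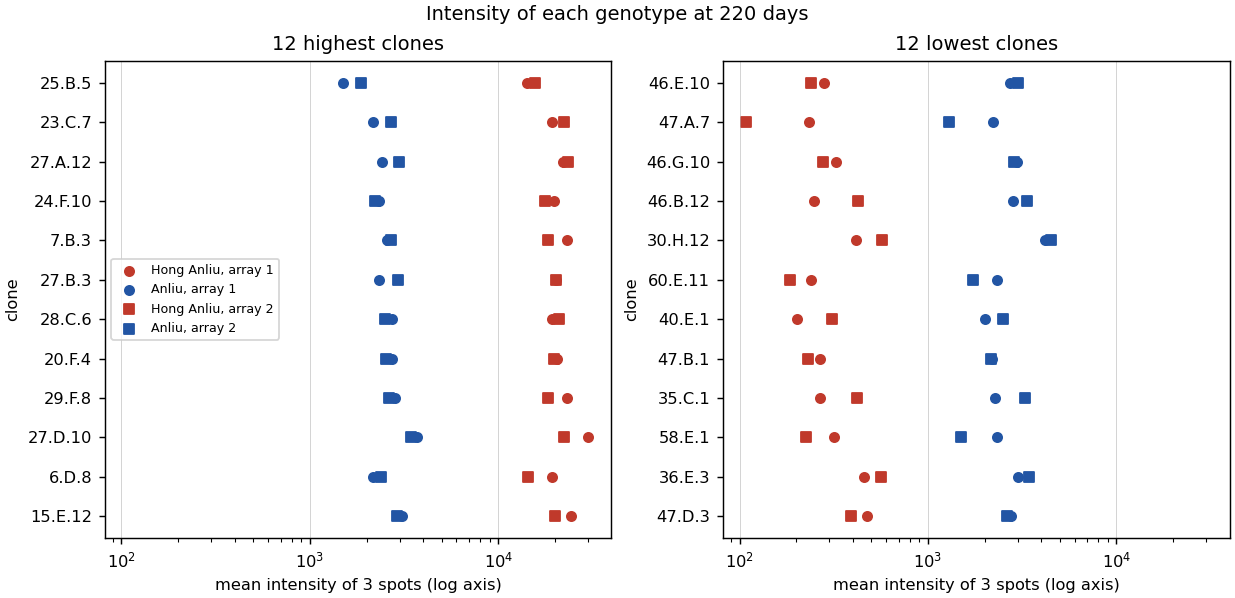
Mean intensity of the 3 spots on a log axis for the 12 highest clones (left) and the 12 lowest clones (right), in Hong Anliu (red) and Anliu (blue), with circles for array 1 and squares for array 2. Intensities are shown before the loess fit, and in every clone the genotypes are separated on both arrays, with mutant values of 14141 and above on the left and of 566 and below on the right.

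Some clones reached 2-fold with 1 genotype not above the limit on 1 of the 2 arrays. Among higher clones, 13.B.8 had ratios of 2.52 and 2.17, with mutant intensities of 4092 and 2833 against 509 and 377 in the wild type. Clone 12.A.12 had ratios of 2.48 and 2.06, and clone 61.A.10 had 2.14 and 2.09. In all 3 the wild type was not above the limit on array 1 and was above it on array 2. On the lower side 49.D.7 had ratios of -2.29 and -3.62 and 41.D.3 had -1.14 ± 0.57 and -1.18 ± 0.89 (SD over 3 spots), again with the wild type not above the limit on array 1. The mean ratio of 41.D.3 was -0.72 with loess within printing blocks, -0.74 in the authors' deposited series table and -0.33 in the authors' deposited table of lowess ratios, short of 2-fold in each. Clone 41.H.3 read 49.7 in Hong Anliu and 1080 in Anliu on array 1, but 61.7 and 109 on array 2. Its ratios of -3.38 and -1.21 came with an SD over spots of 2.24 on array 1, and its mean ratio was -0.57 with loess within printing blocks.

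At the threshold, the last clones counted as higher were 29.G.6 (1.002 and 1.03) and 22.B.3 (1.26 and 1.002), and the first clones not counted were 44.G.6 (0.999 and 1.05) and 22.F.7 (0.999 and 1.12). On the lower side 7.G.1 (-1.001 and -1.17) and 1.H.1 (-1.23 and -1.002) were counted, and 57.A.12 (-0.99 and -1.08) and 6.H.6 (-1.16 and -0.98) were not.

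Levels of each genotype were also followed, as log2 values relative to the typical clone. The mean log2 intensity of both dyes was quantile normalized between arrays, and the loess ratio was divided evenly around it. A level is therefore not read from 1 dye alone. Before normalization the median intensity on days 190 and 220 was 3593 and 2265 in the wild type of array 1. In the mutant of array 1 it was 2912 and 3730, and array 2 moved alike. For the 255 higher clones the median change of the level from 190 to 220 days was 0.41 in Hong Anliu and -0.86 in Anliu. The wild type level on day 220 was below that on day 190 for 233 of them, and the mutant level was above it for 221. Over all 5833 clones these medians were -0.01 and 0.05, which the normalization holds near 0. For the 128 lower clones the median change was -0.40 in the mutant, with 99 clones below their level on day 190, and 0.15 in the wild type, with 70 above. The clones were chosen on the ratio on day 220, so these values describe how the ratio is made up and are not tested.

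The same clones were then read at the other 4 days, on arrays that played no part in choosing them. Of the 255 clones higher on day 220, 45 (17.6%) were also 2-fold higher on day 190 and 68 (26.7%) on day 150, where 6.24% and 7.18% of all clones were. On day 120, 8 (3.14%) were 2-fold higher and 63 (24.7%) were 2-fold lower, against 3.60% and 5.21% of all clones. On day 170 none was 2-fold higher and 197 (77.3%) were 2-fold lower, with a median ratio of -1.85, where 17.1% of all clones were 2-fold lower. The 45 shared clones are 12.4% of those higher on day 190, and the 197 are 19.7% of those lower on day 170.

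Of the 128 clones lower on day 220, 37 (28.9%) were also 2-fold lower on day 190 and 39 (30.5%) on day 150, where 4.82% and 5.57% of all clones were. The 37 clones are 13.2% of those lower on day 190. On day 170, 47 (36.7%) were 2-fold higher and 20 (15.6%) 2-fold lower, against 7.95% and 17.1% of all clones. On day 120, 33 (25.8%) were higher and 4 (3.12%) lower, against 3.60% and 5.21% of all clones. Their median ratio was 0.61 on day 120, -0.27 on day 150, 0.85 on day 170 and -0.79 on day 190. At no other day were 23 of the higher clones (9.02%) and 43 of the lower clones (33.6%) 2-fold different, where this held for 62.5% of all 5833 clones. At both 150 and 190 days, 24 of the higher clones (9.41%) were 2-fold higher and 35 of the lower clones (27.3%) 2-fold lower, against 3.70% and 2.18% of all clones.

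**Figure D3:**
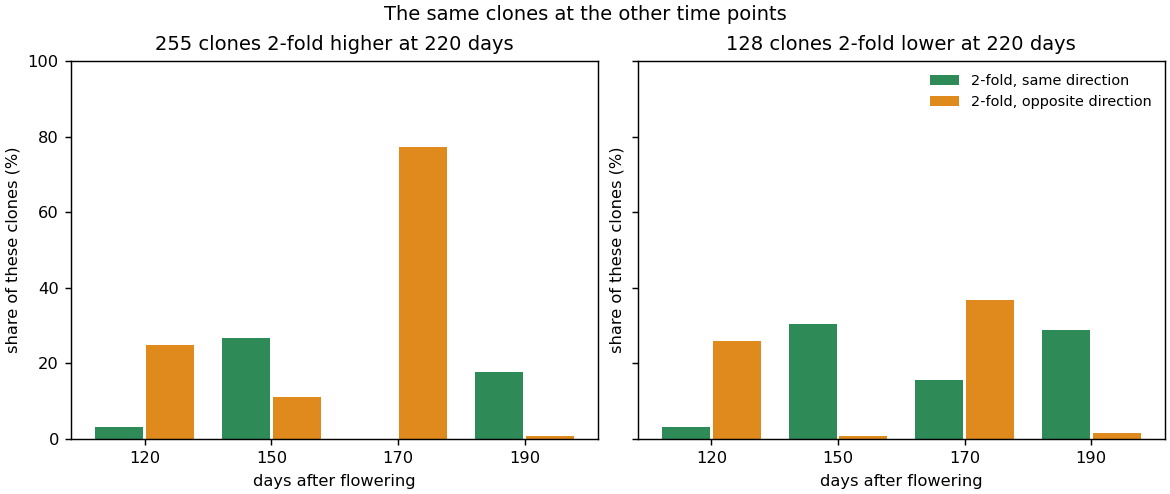
Bars give the share in percent of the 255 clones higher (left) and the 128 clones lower (right) on day 220 that were 2-fold different at each other day, in the same direction (green) or the opposite one (orange). The tallest bar is the 77.3% of the higher clones that were 2-fold lower on day 170.

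Across the 5829 clones with a value at all days, the ratios on day 220 correlated with those on day 190 at r = 0.17 (Spearman's rho 0.02), on day 150 at 0.20 (rho 0.10), on day 120 at -0.38 (rho -0.40) and on day 170 at -0.51 (rho -0.48). By rank, the ratios of 190 days thus had almost no relation to those of 220 days. Clones are not independent replicates, and each pair of days shares the clones and the print, so these are descriptions. The labels name the dye of each genotype on every array, and the direction was taken from them on all days. If the sign on day 170 were turned, the 197 clones would be 2-fold higher at both 170 and 220 days. Of the lower clones, 47 would then be 2-fold lower on both days. The 20 that were lower on both days would instead be 2-fold in opposite directions. Whether the fruit of the genotypes was exchanged on a day was not tested.

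A test was possible only of the ratio on day 220 against the ratios of the other 4 days, which asks whether 220 days stood outside their spread. In limma, 0 of 5829 clones (0%) had an adjusted p under 0.05, and the smallest adjusted p was 0.618. At an unadjusted p under 0.05 there were 370 clones, 216 with a higher ratio on day 220 and 154 with a lower one. Without 170 days this was 880 clones, 508 higher and 372 lower, without 120 days it was 166 and without 150 days 211, again with 0 clones called by limma. Where no clone differs, a fraction of 0.05 of the clones is expected to pass unadjusted. The count with all days lies near that fraction, those without 120 or 150 days fall short of it, and that without 170 days exceeds it. Why it does was not tested. No clone was called in any of these fits, so the counts and their directions single out no clones. The residual spread has 3 degrees of freedom and assumes that 220 days varies like the others, so 0 calls do not show that no clone differed.

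The clone with the highest moderated t in that test was 53.H.3. Its ratio was -1.70, -1.33, -1.57 and -0.54 at 120, 150, 170 and 190 days, and 1.62 and 1.44 on the 2 arrays of 220 days. It was lower in the mutant on the earlier days and higher on day 220. The difference from the mean of the other days was 2.81 (SE 0.57, limma adjusted p = 0.618). Clone 61.H.4 ran alike, at -2.15, -1.31, -1.67 and -0.60 and then 1.90 and 1.63, with a difference of 3.20 (SE 0.65). Clone 50.G.4, with a difference of 2.64, was 1.56 and 0.86 on the arrays of 220 days and so was not counted as 2-fold. In all 3 clones the wild type was not above the limit on array 1.

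At the other end stood 21.F.1, with 0.72, 1.08, 0.78 and 0.71 on the earlier days and -1.10 and -1.27 on day 220. Its difference was -2.00 (SE 0.42, limma adjusted p = 0.618), and -0.09 with the controls Y1 to Y4 as the centre. Its intensity on day 220 was 3113 and 2761 in the mutant against 3937 and 3749 in the wild type. Clone 14.A.6 was 0.94, 0.65, 0.42 and 0.65 and then -1.15 and -1.33, a difference of -1.91. Clone 21.B.3 had a difference of -1.85, but its arrays of 220 days gave -2.74 and -0.30, and it was not counted as 2-fold.

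The 2-fold clones were also sorted by their course over the other days. The clones were grouped by their ratios on the other 8 arrays, so that any pair within a group differed by a root mean square of at most 0.75. The 255 higher clones fell into 35 groups, 19 of them with 5 clones or more, which hold 218 clones. Of the 128 lower clones, 127 had a value on all of those arrays and fell into 19 groups, with 112 clones in the 10 groups of 5 or more. The ratio on day 220 chose the clones but did not enter the grouping. How all clones would group under this rule is not given here. The group sizes therefore do not show that 2-fold clones share a course more often than other clones. Over all clones the SD of the mean ratio was 0.61 on day 120 and 0.98 on day 170, so the limit of 0.75 is not a narrow one. The files do not say whether clones of a group carry the same transcript. The SD over the clones of a group is narrowed on day 220 by the 2-fold rule and on the other days by the grouping limit. Clones of a group are not replicates, so that SD does not measure spread between fruit.

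The largest higher group held 31 clones from 26 plates and is named here after its member 6.D.8. Its median ratio was -0.18 on day 120, 1.12 on day 150, -2.95 on day 170, 0.10 on day 190 and 1.35 ± 0.32 (SD over clones) on day 220. The group of 23.C.7, with 18 clones from 14 plates, had a like course but lay lower on day 170 (-3.42) and higher on day 220 (2.02 ± 0.27). It holds 8 of the 12 highest clones. Its median mutant level was 13.22 on day 190 and 13.83 on day 220, and its wild type level was 13.49 and 11.73. Relative to the typical clone, the wild type level thus moved further than that of the mutant between the last collections.

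The group of 25.B.5 held 17 clones from 12 plates, 25.B.5, 27.A.12 and 7.B.3 among them. It was higher in the mutant on day 150 (2.41 ± 0.25), day 190 (1.32 ± 0.11) and day 220 (1.88 ± 0.25), with -0.43 on day 120 and -2.05 on day 170. Its mutant level was 9.57, 12.59, 10.08, 12.46 and 12.71 over the 5 days, and its wild type level was 10.25, 9.93, 11.98, 11.14 and 11.04. Relative to the typical clone, on day 220 the mutant was at its highest level and the wild type stood between its own extremes.

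A different course marked the group of 51.F.1, with 27 clones from 16 plates, which includes 53.H.3 and 61.H.4. Its ratio was -1.70 ± 0.22 on day 120, -1.24 ± 0.18 on day 150, -1.86 ± 0.14 on day 170 and -0.39 ± 0.09 on day 190, against 1.46 ± 0.16 on day 220. The mutant level was 10.20 on day 120, 11.42 on day 190 and 11.81 on day 220, and the wild type level was 11.99, 11.73 and 10.23. The genotypes thus changed places between 190 and 220 days. The group of 49.F.7, with 9 clones, also lay below 0 at every earlier day, at -1.33, -1.01, -0.07 and -0.76, and at 1.10 ± 0.07 on day 220. In the group of 20.B.1, with 9 clones, the ratio was -2.15 on day 120, 1.45 on day 190 and 1.30 ± 0.10 on day 220.

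Among the lower clones the group of 46.E.10 stood apart in size. It held 17 clones from 11 plates, with all of the 12 lowest among them. Its ratio was -0.40 ± 0.08 on day 120, -2.06 ± 0.20 on day 150, -1.44 ± 0.21 on day 170, -3.44 ± 0.26 on day 190 and -3.56 ± 0.38 on day 220. The mutant level was 10.23, 9.76, 8.23, 8.57 and 7.92 over the 5 days, and the wild type level was 10.59, 11.81, 9.62, 12.14 and 11.65. Relative to the typical clone, the mutant was at its lowest on day 220, while the wild type was at its highest on day 190. The group of 61.B.6, with 6 clones from 6 plates, had a like course with less depth on day 220 (-2.27 ± 0.31, and -2.76 on day 190).

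Other lower groups changed sides under the loess centre. The group of 33.B.12, with 25 clones from 15 plates, was higher in the mutant on day 120 (1.47 ± 0.12) and day 170 (1.41 ± 0.06), near 0 on day 150 (0.17 ± 0.15), and lower on day 190 (-0.80 ± 0.04) and day 220 (-1.17 ± 0.09). Its mutant level was 14.01 on day 120 and 11.63 on day 220, while the wild type level was 12.51 and 12.81. The group of 41.E.8, with 28 clones from 18 plates, was at 0.70 on day 120, -0.19 on day 150, 0.93 on day 170 and -0.77 on day 190, against -1.27 ± 0.15 on day 220. Relative to the typical clone, both groups thus stood above 0 on days 120 and 170 and below 0 on the last days. On day 150 they stood on opposite sides of 0. These sides depend on the centre, as the controls Y1 to Y4 lay at 2.03 on day 120 and at -1.15 on day 220. The group of 13.C.3, with 6 clones, was -0.95, -1.80, 1.93 and -1.34 on the earlier days and -1.81 ± 0.21 on day 220, so that it stood above 0 on day 170 alone.

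**Figure D4:**
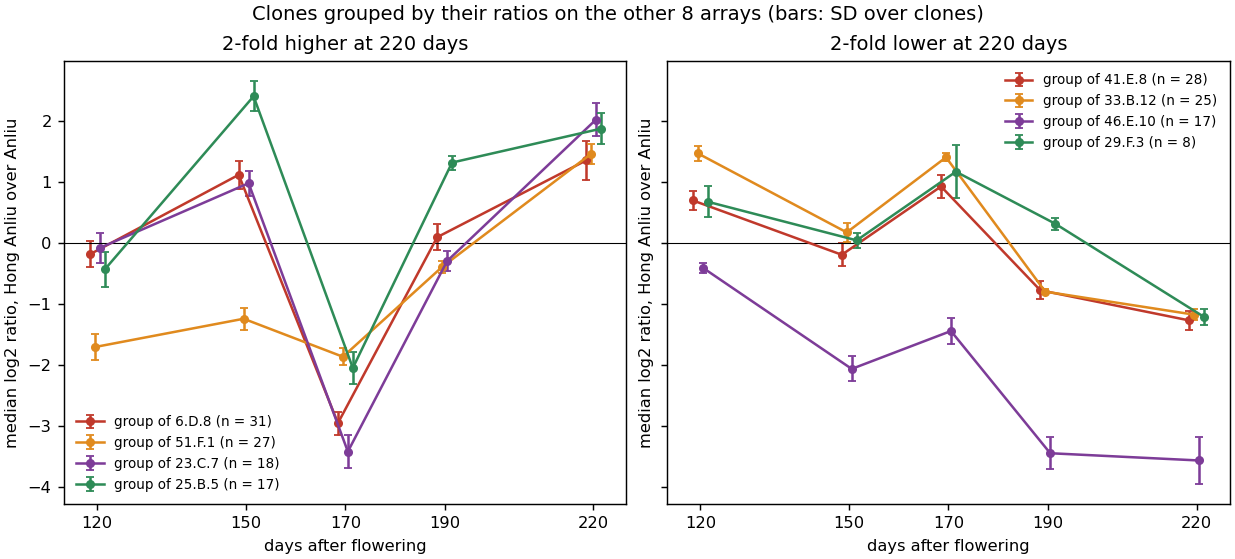
Median log2 ratio of Hong Anliu over Anliu against days after flowering for the 4 largest groups of higher clones (left) and of lower clones (right), with bars for the SD over the clones of a group and points set apart sideways for legibility. The group of 51.F.1 crosses 0 between 190 and 220 days, and the group of 46.E.10 ends at -3.56.

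The groups were set against all clones with a like course, whether or not they were 2-fold on day 220, the groups' own members included. Within a root mean square of 0.3 of the median course of the group of 46.E.10 lay 14 clones, and all 14 were 2-fold lower on day 220 (-4.01 to -2.78). Around the group of 25.B.5 lay 11 clones, all 2-fold higher (1.52 to 2.12), and around the group of 51.F.1 lay 27, of which 24 were 2-fold higher. Of the 45 clones around the group of 33.B.12, 27 were 2-fold lower and all 45 were below 0 on both arrays. Around the group of 23.C.7, 23 of 31 clones were 2-fold higher, with ratios down to -0.55. Around the group of 41.E.8, in contrast, 23 of 113 clones were 2-fold lower, and around that of 49.F.7 there were 9 of 83 that were 2-fold higher. Those 83 clones had a median ratio of 0.81 on day 220 with an SD of 0.41, and ran from -0.97 to 1.25. The share was smaller still around the higher group of 14.B.4 (6 of 100) and the lower group of 24.D.10 (3 of 291). Around the lower group of 41.A.12, 1 of 242 clones was 2-fold lower and 3 were 2-fold higher. The courses were taken from clones chosen on day 220, so these counts are descriptions.

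The 2-fold clones were not spread evenly over the clone plates. Plates 1 to 29 hold 2782 of the 5833 clones (47.7%), 193 of the 255 higher clones (75.7%) and 34 of the 128 lower clones (26.6%). The 3 largest lower groups, with 70 clones, lie wholly on plates 30 to 61, as do the groups of 51.F.1 and 49.F.7, while the group of 23.C.7 lies wholly on plates 1 to 29. The labels do not say what the plates hold. In the 16 printing blocks that hold clones of both parts, 56 of 815 clones of plates 1 to 29 and 22 of 1142 of plates 30 to 61 were higher, and the share was larger on plates 1 to 29 in 14 of the 16 blocks. Of the lower clones in these blocks, 12 lie on plates 1 to 29 and 47 on plates 30 to 61, with the larger share on plates 30 to 61 in 14 of the 16. Within blocks the median ratio of plates 1 to 29 minus that of plates 30 to 61 was 0.11 ± 0.21 (SD over 16 blocks) on array 1 and -0.02 ± 0.11 on array 2. Over all blocks the median ratio of the parts was -0.06 and -0.01 on array 1 and -0.05 in both on array 2. The 3 spots of a clone lie in consecutive rows of 1 block, so they are not spread over the array.

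**Figure D5:**
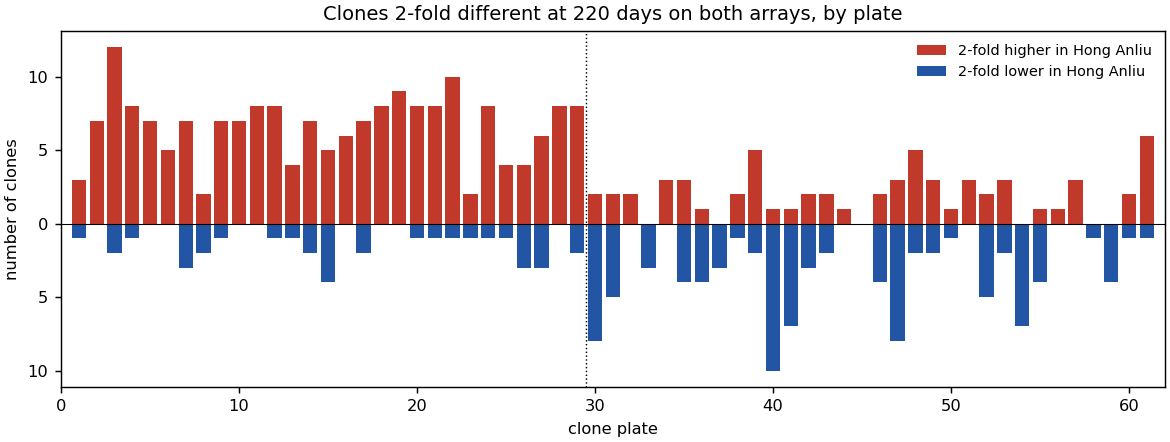
Number of clones per plate that were 2-fold higher (red, upward) or 2-fold lower (blue, downward) in Hong Anliu on day 220 on both arrays, with a dotted line between plates 29 and 30. Plate 3 holds the most higher clones, 12, and plate 40 the most lower clones, 10.

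The control spots named Y1 to Y4 lay away from the typical clone on day 220. Their mean ratio was -1.09 on array 1 and -1.21 on array 2, and -1.15 ± 0.24 (SD over the 4 controls) over both. At 120, 150, 170 and 190 days it was 2.03, 0.24, 0.61 and 0.21. The ratio intended for these controls is not given in the sources used here. With these controls as the centre, the median clone lay at 1.05 on array 1 and 1.16 on array 2, and 99.3% of the 2-fold clones were higher, against 66.6% with the loess centre. Under both centres 25.B.5 was higher (3.50 on the controls) and 46.E.10 was lower (-2.86). Whether the genotypes differed in total messenger RNA was not tested.

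The authors' deposited table of lowess ratios lists 5545 clones on day 220. Its log2 values correlated with the ratios given here at r = 0.97 across clones. By the authors' deposited table, 404 clones were 2-fold higher and 140 were 2-fold lower. Of these, 232 of the higher and 101 of the lower clones were 2-fold on both arrays here as well. That table has 1 mean ratio per clone, so its 2-fold rule did not ask for both arrays. With the mean of both arrays, the ratios given here had 364 higher and 205 lower clones. On the linear scale of mutant over wild type, the authors' deposited table has a ratio of 6.10 for 25.B.5 and of 0.0557 for 46.E.10.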

How the data were processed

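Per the file headers, the deposited array tables hold a Cy5 and a Cy3 intensity for every spot and a linear ratio of mutant over wild type. From its values, the deposited series table holds the log2 of that ratio, and a further deposited table lists 1 lowess ratio per clone and day. Background had been subtracted from the deposited intensities, as blank spots centre near 0. No source used here names the scanner, the background method or the normalization steps.

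From the intensities, clone spots at or below 0 were left out (8 and 15 spots on the arrays of 220 days). Spots at or above an assumed top of the scale (13 and 2) stayed in. The median of the control Y5 lay above that value, at 73363 in the mutant on array 1. These spots are therefore not shown to be saturated, nor the others to be unsaturated. The log2 ratio was fitted by a global loess (span 0.3) within each array on the 17568 clone spots, with control spots at weight 0, turned to mutant over wild type, and averaged over the 3 spots of a clone. A clone was counted where 1 dye or both exceeded, on both arrays, the 95th percentile over blank (144) and solvent (144) spots, which left out 23 clones. The 2 arrays of a day were averaged to 1 replicate, and 5 values per clone entered limma (version 3.58.1, R 4.3.3; lmFit and eBayes, two-sided, Benjamini-Hochberg adjusted, threshold 0.05), as 220 days against the other 4. Figures were drawn with matplotlib 3.10.9. On simulated ratios the fit was checked to return a planted difference on average. The simulated clones were independent, unlike clones that share a course, and how often a planted difference was called is not given here. Precision is limited by having 1 replicate per genotype and day.

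The rule for named clones took the 12 highest and 12 lowest mean ratios among 2-fold clones with both genotypes above the limit, up to 3 in each direction with 1 genotype not above it, the 2 clones on each side of the threshold, and the 3 highest and lowest moderated t. Group names are the highest or lowest clone of a group and were chosen after the values were seen. The members, the rule and the alternatives were chosen with earlier results of these data known.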

Additional observations from a re-analysis of the deposited data

Results flagged for a closer look

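Clones 2-fold different in opposite directions at 220 days and at another day, on both arrays of each, numbered 96 for 120 days, 29 for 150 days, 244 for 170 days and 4 for 190 days. The clones were chosen by their direction on all arrays of both days, so that agreement follows from the choice, and the difference was not tested. At 120, 150, 170 and 190 days 24.7%, 11.0%, 77.3% and 0.78% of the higher clones were 2-fold lower. This held for 5.21%, 5.57%, 17.1% and 4.82% of all clones. On the same days 25.8%, 0.78%, 36.7% and 1.56% of the lower clones were 2-fold higher. Of all clones, 3.60%, 7.18%, 7.95% and 6.24% were. Of the 244, 197 were higher at 220 days and 47 lower. The control spots Y1 to Y4, which are not clones and serve only as an alternative centre, stood at -1.145 on average on the log2 scale at 220 days, and their intended ratio is not known. Among them Y4 was nearest to 0, at -0.84 and -0.76 on the 2 arrays.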

How the results depend on the processing

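The test of 220 days against the other days called 0 clones in limma under all 18 alternatives run, with smallest adjusted p of 0.0608 (centred on Y1 to Y4, 1295 clones at an unadjusted p under 0.05, all higher) to 0.852. On all 10 arrays it called 0 clones with the replicate block (502 at an unadjusted p under 0.05) and 0 with no replicate block (571). A fraction of 0.05 of the clones is expected to pass unadjusted where none differs. Samples of the same dye orientation deviated together weakly, with correlations of 0.07 to 0.42 over 10 pairs of days, so the numbers were not taken to pair them. Centred on Y1 to Y4, 2804 clones were 2-fold different, 2783 higher and 21 lower. The differences of 21.B.3 and 14.A.6 then turned to 0.0694 and 0.0083, that of 21.F.1 moved from -2.005 to -0.0882, and the ratios of 7.G.1, 1.H.1, 57.A.12 and 6.H.6 to 0.0603, 0.0278, 0.109 and 0.0747. With 1 array alone 587 to 802 clones were 2-fold different: without replicate 1 there were 370 higher and 217 lower, and without replicate 2 there were 436 higher and 366 lower. Fewer arrays to satisfy gives higher counts by construction. The mean of both arrays gave 364 higher and 205 lower clones. A 1.5-fold threshold gave 1509 clones, 903 higher and 606 lower, and a 3-fold threshold 93, 62 and 31. The authors' lowess table, with 1 mean ratio per clone, gave 404 higher clones. The cause of its difference from the 364 was not tested. Counting each profile group once, chosen after seeing the data, gave 54, 35 higher and 19 lower. With median centring, loess within blocks, other filters, the median of 3 spots, an offset of 50, the authors' series table or all 6 spots required, the higher clones numbered 187 to 289 and the lower 88 to 128. Of 416 ratios of named clones under alternatives, 4 changed sign and 53 moved by more than the spread between the arrays. The wild type limit of array 1, raised by solvent spots at 1820, left 945 counted clones with a wild type signal not above it.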

Other observations

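The control spots Y5 to Y8 also gave like values on both arrays of 220 days. The mean log2 ratio of Y6 was -4.31 on array 1 and -4.72 on array 2, that of Y8 was -2.99 and -3.32, and that of Y7 was 0.49 and 0.27. No source used here gives their intended ratios.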
